A study of Mus musculus with 60 samples.

Results

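The step from postnatal day 4 (P4) to postnatal day 14 (P14) was read in 28 of the 60 deposited libraries of mouse microglia, the resident macrophages of the brain. The members are the 10 libraries titled F_P14, the 10 titled M_P14, the 4 titled F_P4 and the 4 titled M_P4, where F and M stand for female and male. All 4 groups are untreated C57BL/6N animals, the labels name no engineered allele, and age and sex are the stated differences between them. The series as a whole compared the sexes over a developmental time course and after lipopolysaccharide in adults, and its other libraries come from embryonic day 18 (E18) and postnatal day 60 (P60). The 7 E18 libraries and the 12 P60 libraries given saline entered the same fit and the comparison with the steps before and after. The P60 libraries given lipopolysaccharide were left out. The labels name microglia as the tissue and give no isolation method, and they do not say whether a library holds 1 animal or a pool. Each gene was read from 1 transcript row, the differences in F and M libraries were averaged with equal weight, and the F and M differences were also tested alone and against each other.

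Microglia enter the brain from the yolk sac before birth, divide there, and spread through the tissue in the first postnatal weeks. In that time they change from rounded, amoeboid cells that clear dying cells and debris into branched cells that survey their surroundings and prune synapses. Survival depends on the receptor Csf1r, and the adult identity depends on transforming growth factor beta (TGF-beta) from the surrounding tissue.

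Library totals ran from 875895 to 3497454 counts at P14 (median 2027601) and from 1887699 to 3074195 counts at P4 (median 2377525). Levels below are CPM, counts relative to a library total that is scaled by TMM, a correction for library composition, and they describe 1 gene across libraries, not genes against each other, since no level was divided by transcript length. Changes are log2 fold changes, P14 over P4, ± SE, with Benjamini-Hochberg adjusted p-values from the quasi-likelihood test of edgeR, and a gene is said to have risen or fallen where the adjusted p was under 0.05. The 10 defining microglial markers, among them Cx3cr1, Csf1r and Sall1, were above 0 in all 28 libraries. The sex-linked genes followed the titles in all 28, although the sex characteristic of 2 of them, replicate 1 of each sex at P4, goes against the title. P14 libraries carry 3 dates in their descriptions and P4 libraries 4, what was done on them is not stated, and no date holds both stages, so stage cannot be told apart from date. Since separate animals are not stated for the libraries of a group, the p-values measure library-to-library spread, which may be technical. The fit also had no term for date and took libraries of the same date as independent. Where libraries of a date are alike, the p-values of the step can thus be too small.

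Some libraries stood apart, and transcripts of other cells were present in all of them, as plotted below for 6 lists. The 6 P14 libraries of the third date had summed levels of 30 immediate early genes of 27359.5 to 35739 CPM, against 16809 to 22039 CPM on the first date and 13871 to 23358 CPM on the second, with no overlap between the third date and the others. The same 6 libraries had the lowest medians of the 3 dates for astrocyte and neuron marker sums, and the highest for the sum of homeostatic genes. Neutrophil markers (14 genes) summed to 80.7 to 689.8 CPM (median 310.5) at P14 and 304 to 9014 CPM (median 1366) at P4, where the highest library was F_P4 replicate 4, and 13 of 14 tested fell. Astrocyte and radial glia markers (17 genes) summed to 358 to 2942 CPM (median 1164) at P14 and 1914 to 3695 CPM (median 2655) at P4, and 15 of 17 fell. Choroid plexus and ependymal markers (12 genes, led by the transthyretin gene Ttr) summed to 1606 to 96432 CPM (median 27445) at P14 and 12958 to 58143 CPM (median 29296) at P4, and Ttr took up to 7.75% of the counts of 1 library, F_P14 replicate 5. In such bulk samples fewer cells of a type and less RNA per cell cannot be told apart, and the part of these transcripts in the changes below was not tested. List counts that moved by over 1.5 times and by more than 1 gene without the third P14 date or without the fourth P4 date (replicate 4 of each sex, with neutrophil sums of 4092 to 9014 CPM) are also given in that setting, and leaving out the fourth P4 date was chosen after the data were seen.

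**Figure D1:**
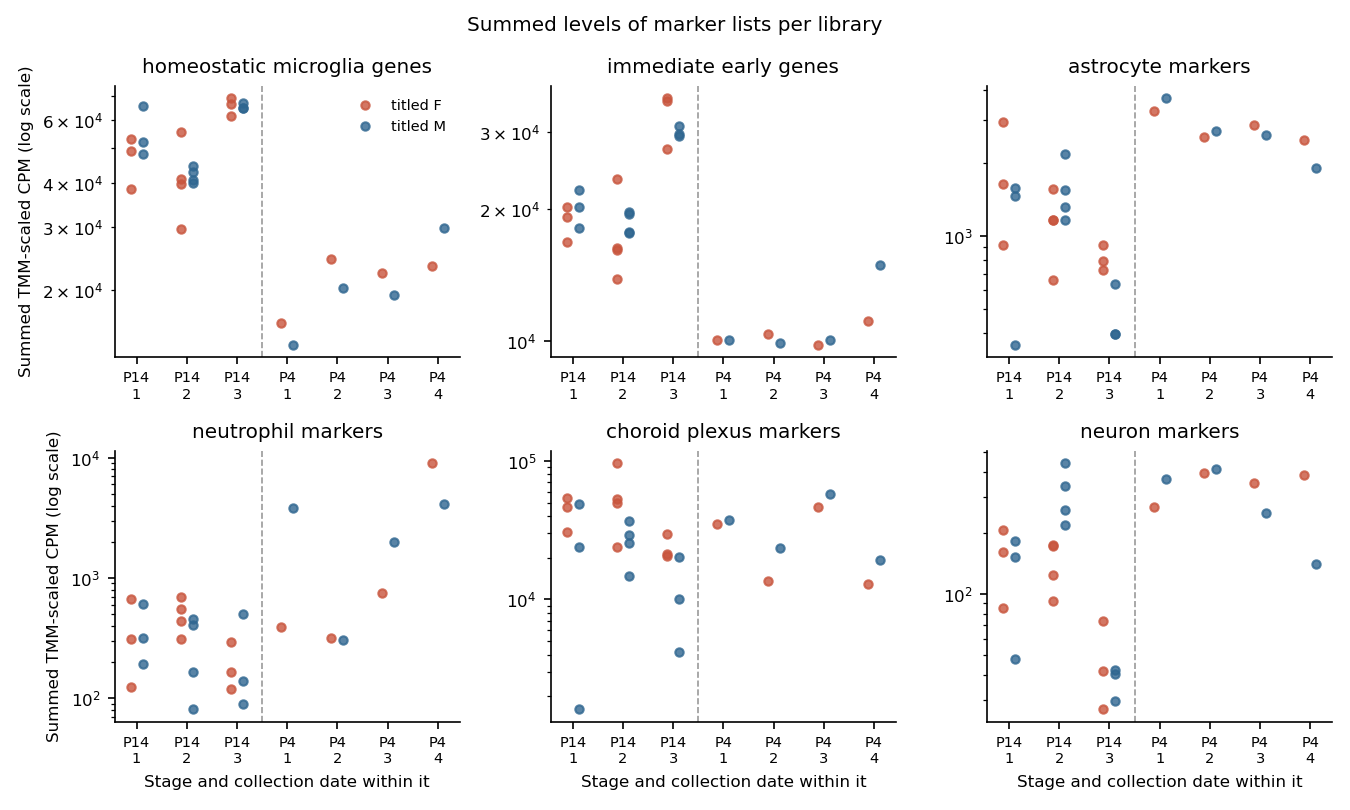
Summed TMM-scaled CPM (log axis) of 6 gene lists in each library, with the 3 P14 dates left of the dashed line and the 4 P4 dates right of it, and points coloured by the sex in the title. The neutrophil sums of P4 libraries spread up to 9014 CPM, the astrocyte sums are mostly lower at P14, and the third P14 date lies above the other P14 dates for immediate early genes and low for neuron markers.

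Of 13853 genes tested in the mean of the sexes, 2856 rose (20.6%) and 2888 fell (20.8%), or 41.5% in all, with a median log2 fold change of -0.01 over all tested genes. More genes fell than rose at least 2-fold: 1595 genes (11.5%) fell at least 2-fold and 718 (5.18%) rose at least 2-fold. For 373 genes (2.69%) every P14 library lay above every P4 library, and for 338 (2.44%) every P14 library lay below, or 215 (1.55%) and 631 (4.55%) on CPM with no TMM factor. Together 5.13% of genes did not overlap on the scaled levels. The balance between rises and falls depended on the scaling: with the size factors of DESeq2 2381 genes rose and 3760 fell, with RLE factors in edgeR 2184 rose and 3634 fell, and the median of all genes moved to -0.13 and -0.12. Without the third P14 date 1869 rose and 2298 fell, and without the fourth P4 date 2672 rose and 2720 fell. The shares of each gene list that rose and fell are plotted below and are read against the shares over all genes.

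**Figure D2:**
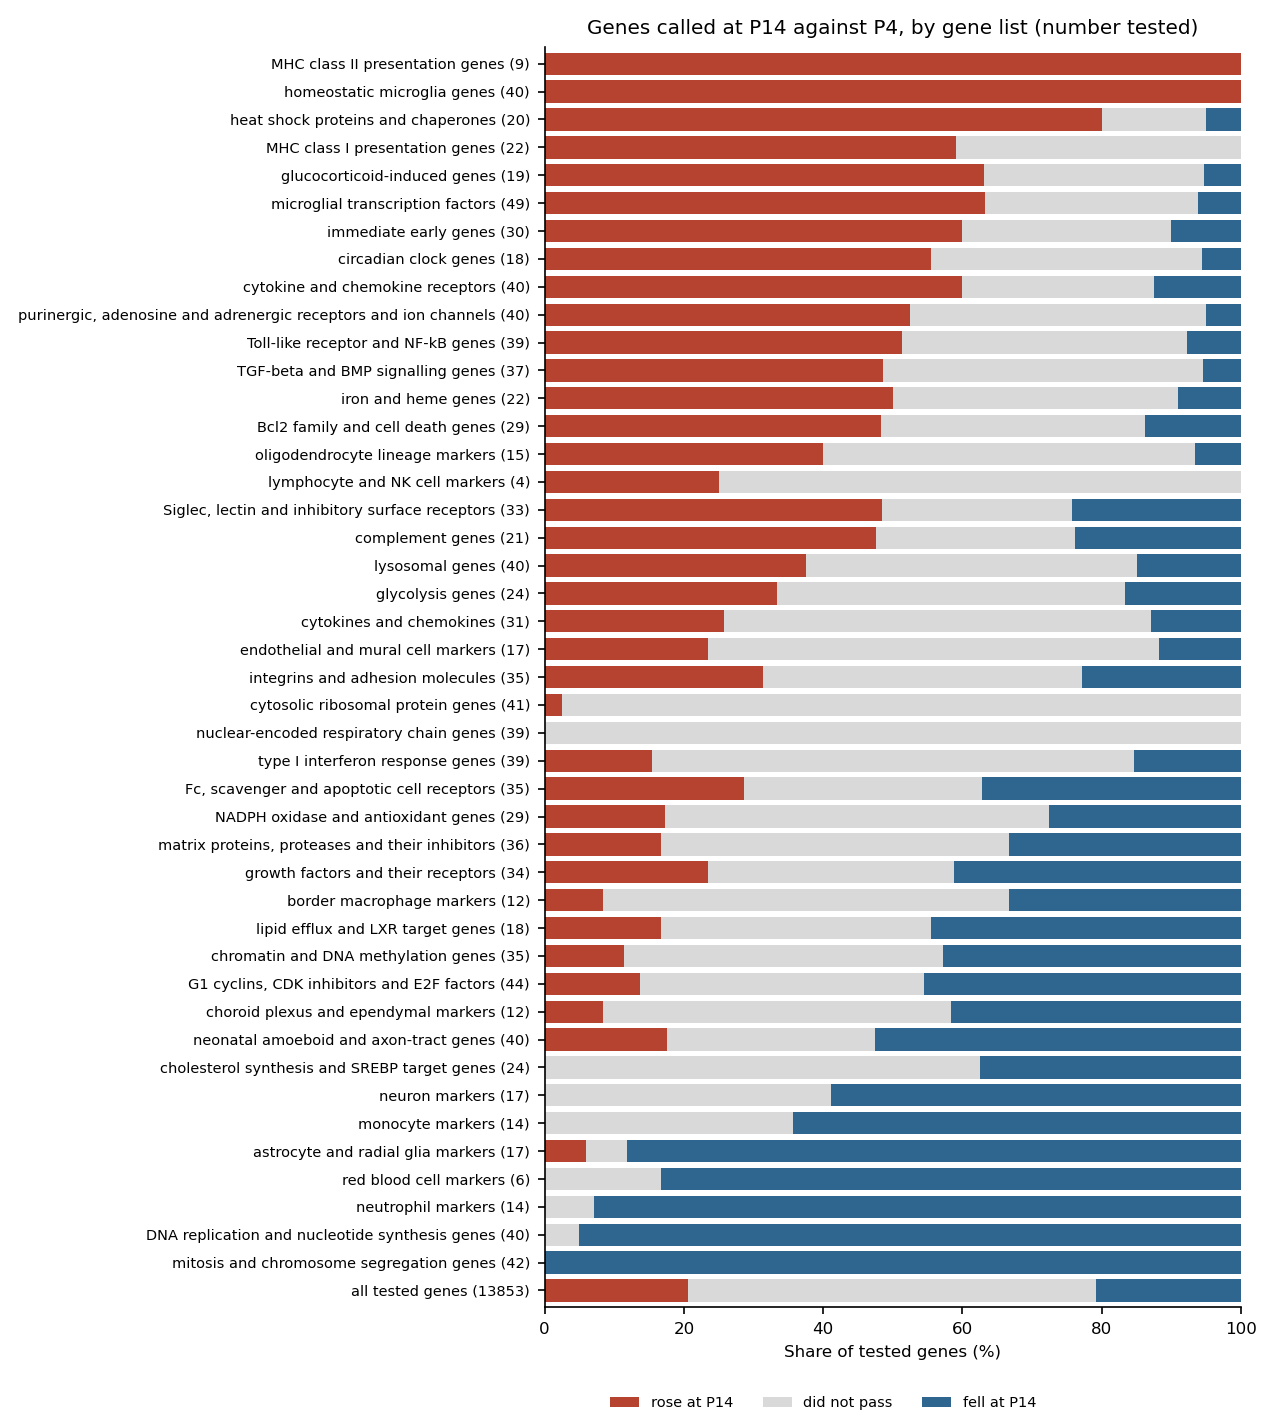
Share of tested genes of each list (number tested in brackets) that rose (left, red), did not pass (grey) and fell (right, blue) at P14 against P4, ordered by the share that rose minus the share that fell, with all tested genes as the lowest bar. All 40 homeostatic genes rose and all 42 mitosis genes fell, against 20.6% and 20.8% of all genes.

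The genes of mature, resting microglia rose together. All 40 of 40 homeostatic genes tested rose, with a median log2 fold change of 1.37, and 31 of them by at least 2-fold. Their summed level was 29658 to 68906 CPM (median 50487) at P14 and 14096 to 29829.8 CPM (median 21355) at P4, overlapping through 1 P14 library, F_P14 replicate 5. Without the third P14 date 38 of 40 rose (median 1.10), and without the fourth P4 date 40 (median 1.51). The microglial surface protein Tmem119, whose function is not settled, had 328, 582 and 1389 CPM in the P14 libraries (lowest, median and highest), against 65.8, 99.8 and 167 CPM in the P4 libraries. All 20 P14 libraries lay above all 8 P4 libraries, and the change was 2.82 ± 0.28 (adjusted p = 3.93e-11). The purinergic receptor P2ry12, which steers microglial processes toward nucleotides from injured cells, had 2346, 4022 and 6049 CPM in the P14 libraries (lowest, median and highest), against 603, 1073 and 1629 CPM in the P4 libraries. The stages again did not overlap, with a change of 1.98 ± 0.19 (adjusted p = 2.77e-11). Selplg, the P-selectin ligand PSGL-1, lay between 522 and 1773 CPM in P14 libraries, with a median of 859.8, and between 74.1 and 163 CPM in P4 libraries, with a median of 117. Its change of 3.16 ± 0.25 (adjusted p = 1.88e-13) was the second largest of the list.

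Other homeostatic genes started from lower or higher P4 levels. Upk1b, a uroplakin of the tetraspanin family, had 10.99, 19.7 and 37.2 CPM in the P14 libraries (lowest, median and highest), against 0.334, 0.450 and 0.955 CPM in the P4 libraries. It was the largest rise among all genes with a mean of at least 10 CPM at a stage, at 5.10 ± 0.31 (adjusted p = 8.94e-17), and each P4 library was under 1 CPM. The secreted cystatin C gene Cst3, an inhibitor of cathepsins, had 2087 to 5241 CPM at P14 (median 3919.8) and 658 to 1127 CPM at P4 (median 884). Every P14 library was above every P4 library, at 2.12 ± 0.22 (adjusted p = 3.02e-10). Rnase4, a secreted ribonuclease, changed by 1.48 ± 0.16, and the sialic acid binding lectin Siglech by 1.48 ± 0.16 (adjusted p = 3.21e-10), both without overlap between the stages.

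**Figure D3:**
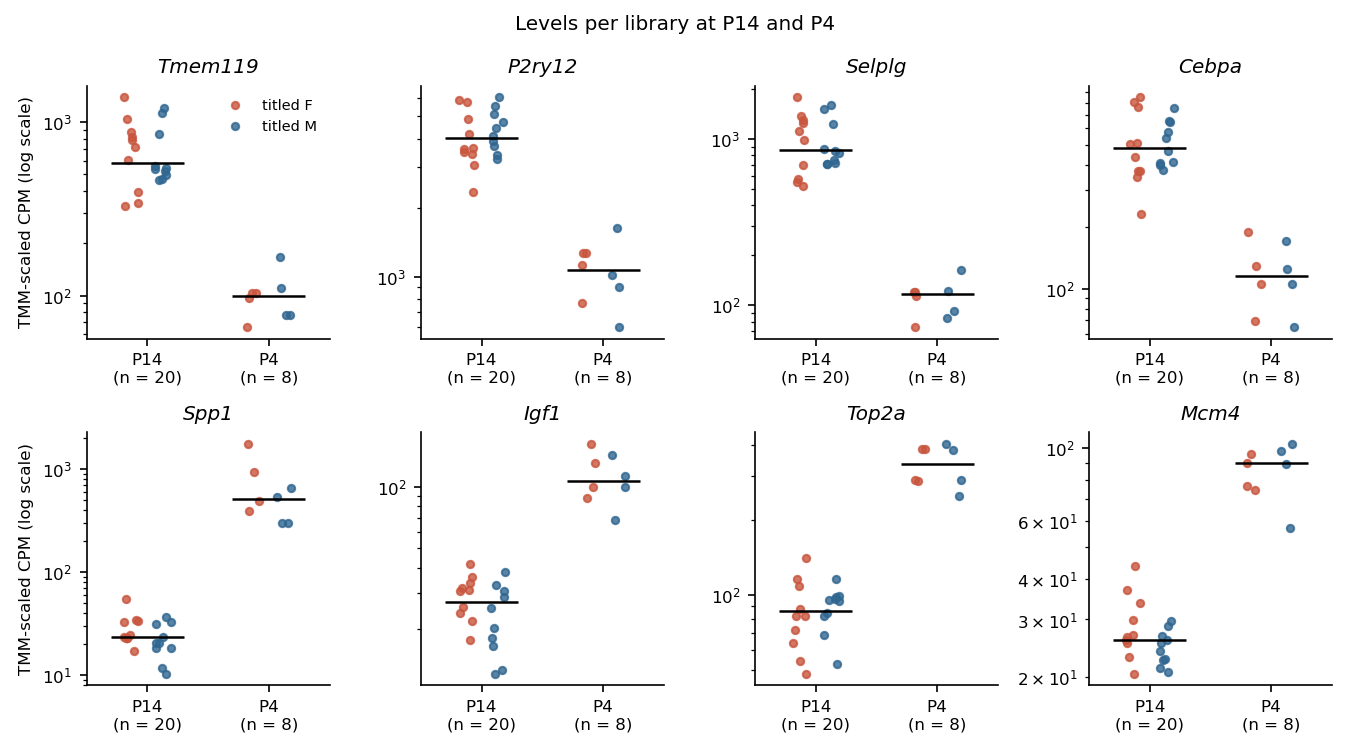
TMM-scaled CPM (log axis) of 8 genes in each P14 library (left in each panel) and each P4 library (right), coloured by the sex in the title, with the median of each stage as a black line. In each of the 8 panels the P14 points and the P4 points do not overlap, higher at P14 in the upper row and lower in the lower row.

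The largest rises outside that list were of several kinds. Prlr, the prolactin receptor, had 1.98, 70.4 and 201 CPM in the P14 libraries (lowest, median and highest), against 1.21, 2.65 and 3.82 CPM in the P4 libraries. The lowest P14 library, titled M, lay within the range of P4, and the change was 4.94 ± 0.61 (adjusted p = 1.68e-08). Mlph, melanophilin, which ties vesicles to a myosin motor, had 12.99 to 67.2 CPM at P14 (median 35.98) and 0.751 to 4.78 CPM at P4 (median 1.88) and changed by 3.90 ± 0.37 without overlap. The interleukin-7 receptor gene Il7r changed by 3.76 ± 0.45, the integrin alpha E gene Itgae by 2.89 ± 0.33, and Rgs1, which dampens G protein signals of chemokine receptors, by 3.15 ± 0.28, each with all P14 libraries above all P4 libraries. Gpr183, a receptor for oxysterols that guides immune cell migration, had 168, 366 and 504 CPM in the P14 libraries (lowest, median and highest), against 31.6, 51.4 and 102 CPM in the P4 libraries. The stages did not overlap, at 2.60 ± 0.22 (adjusted p = 1.1e-12). The uncharacterised transcript 1700095B10Rik changed by 2.72 ± 0.37, with overlapping libraries.

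Transcription factors of the microglial and macrophage lineage moved mainly up. Of 49 tested, 31 rose, 3 fell and 15 did not pass (median 0.80), and without the third P14 date 25 rose. Cebpa, a myeloid lineage factor, had 229, 482 and 847 CPM in the P14 libraries (lowest, median and highest), against 65.1, 115 and 188 CPM in the P4 libraries. Stages did not overlap, at 2.12 ± 0.24 (adjusted p = 2.03e-09). Bhlhe41, a repressor of clock and immune genes, changed by 2.76 ± 0.27, Klf4 by 1.78 ± 0.25, Mef2a, a factor with binding sites at microglial enhancers, by 1.44 ± 0.21, and the interleukin-4 signal factor Stat6 by 1.02 ± 0.14. In each of these 5 genes all P14 libraries were above all P4 libraries. The 3 that fell were Tfec at -1.27 ± 0.24, Runx2 at -1.63 ± 0.35 and Lef1, a factor of Wnt signalling, at -0.76 ± 0.18, all with overlapping libraries. Sall1, a transcription factor of microglial identity, had 248 to 839 CPM at P14 (median 438) and 135 to 482 CPM at P4 (median 227), with a change of 1.03 ± 0.26 (adjusted p = 0.00106).

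TGF-beta and BMP signalling genes rose more often than they fell. Of 37 tested, 18 rose, 2 fell and 17 did not pass (median 0.43). The type I receptor Tgfbr1 had 839.6, 1994 and 2864 CPM in the P14 libraries (lowest, median and highest), against 377, 600.1 and 772 CPM in the P4 libraries. The stages did not overlap, at 1.79 ± 0.19 (adjusted p = 3.21e-10), while the co-receptor Tgfbr3 fell by 0.63 ± 0.26 (adjusted p = 0.0451), a call lost without the third P14 date (-0.52). Itgav, an integrin chain that releases active TGF-beta from its latent form, rose by 0.75 ± 0.14. The feedback inhibitor Smad7 had 122 to 433 CPM at P14 (median 291) and 36.6 to 72.5 CPM at P4 (median 51.5), with a change of 2.41 ± 0.24 (adjusted p = 7.22e-11) and no overlap, and 2 further inhibitors of the pathway, Pmepa1 and Tgif1, changed by 1.31 ± 0.20 and 0.96 ± 0.17. The target gene Id2 changed by 1.502 ± 0.17. Smad5, a BMP signal transducer, fell by 0.50 ± 0.10, with 75.9 to 129.7 CPM at P14 (median 108) and 139 to 158 CPM at P4 (median 149), and here every P14 library lay below every P4 library.

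Genes of neonatal amoeboid microglia fell more often than they rose. This list holds genes of the dividing, phagocytic cells found along axon tracts in the first postnatal week. Of 40 tested, 21 fell, 7 rose and 12 did not pass (median -0.52). In 12 of the 40 every P14 library lay below every P4 library, against 2.44% of all genes. Spp1, osteopontin, a secreted phosphoprotein, had 10.3, 23.1 and 54.2 CPM in the P14 libraries (lowest, median and highest), against 299, 516 and 1761 CPM in the P4 libraries. The highest P14 library was below the lowest P4 library by several-fold, and the change was -4.65 ± 0.23 (adjusted p = 1.86e-20). Gpnmb, a transmembrane glycoprotein of phagocytic macrophages, had 0.938 to 7.49 CPM at P14 (median 2.96) and 20.4 to 131 CPM at P4 (median 46.5), at -3.80 ± 0.28 (adjusted p = 1.18e-14). Igf1, the insulin-like growth factor that supports neurons and myelination, had 12.1, 27.1 and 41.8 CPM in the P14 libraries (lowest, median and highest), against 68.6, 106 and 162 CPM in the P4 libraries. It fell by 2.11 ± 0.16 (adjusted p = 1.18e-14) with no overlap. The integrin Itgax (CD11c) fell by 2.60 ± 0.21, the fatty acid binding protein Fabp5 by 2.37 ± 0.24 and the glutathione peroxidase Gpx3 by 3.12 ± 0.23, again without overlap. Members that rose included the heme oxygenase Hmox1 at 1.35 ± 0.19, the Toll-like receptor relative Cd180 at 0.81 ± 0.19 and the macrophage lysosomal glycoprotein Cd68 at 0.59 ± 0.14. Neutrophil markers fell at the same step, and with the fourth P4 date left out 18 of the neonatal list fell. The summed level of the neonatal list overlapped between the stages. It was 11119 to 19270 CPM (median 14882) at P14 and 11332 to 23642 CPM (median 16410) at P4.

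Genes of mitosis and chromosome segregation fell without exception, 42 of 42 tested (median -1.81), and in 38 of them the 20 P14 libraries lay below the 8 P4 libraries, against 2.44% of all genes. The summed level was 608 to 1343 CPM (median 937) at P14 and 2531 to 3898 CPM (median 3189) at P4, so it was lower at P14 but not at 0 in any library. Top2a, the topoisomerase that untangles chromosomes, had 48.2, 85.7 and 141 CPM in the P14 libraries (lowest, median and highest), against 249.6, 335 and 404 CPM in the P4 libraries. It fell by 1.94 ± 0.18 (adjusted p = 7.48e-12). The mitotic kinesin Kif20a fell by 1.65 ± 0.14, the spindle pole kinase Aurka by 2.11 ± 0.19, the spindle checkpoint kinase Bub1b by 2.10 ± 0.19, and Prc1 and Ect2, which act in the cleavage of the cell, by 1.83 ± 0.17 and 1.65 ± 0.16. Without the third P14 date 42 of 42 fell, and without the fourth P4 date 41 of 42.

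DNA replication and nucleotide synthesis genes fell nearly as uniformly, 38 of 40 tested (median -1.29), and 2 did not pass. In 18 of the 40 every P14 library lay below every P4 library, against 2.44% of all genes. The replicative helicase subunit Mcm4 had 20.5, 25.9 and 43.6 CPM in the P14 libraries (lowest, median and highest), against 57.1, 89.99 and 103 CPM in the P4 libraries. It fell by 1.68 ± 0.12 (adjusted p = 5.24e-15), its partner Mcm6 by 1.72 ± 0.13, and Rrm1 and Rrm2, the subunits of ribonucleotide reductase, by 1.54 ± 0.12 and 2.49 ± 0.23. Uhrf1, which recruits the maintenance methyltransferase to new DNA, fell by 2.06 ± 0.17 and the DNA ligase Lig1 by 1.66 ± 0.15. Of 44 G1 cyclins, CDK inhibitors and E2F factors tested, 20 fell and 6 rose. Those that fell included E2f8, E2f7 and E2f1 at -2.51 ± 0.24, -2.28 ± 0.23 and -1.40 ± 0.18, the cyclin Ccne1 at -2.52 ± 0.30 and Foxm1, a factor of G2 and mitotic genes, at -1.44 ± 0.18. Among those that rose were Lin54, a DNA-binding subunit of the DREAM complex that represses cell cycle genes, at 0.92 ± 0.15, and the antiproliferative gene Btg1 at 0.88 ± 0.16. Chromatin genes followed in part, with 15 of 35 falling and 4 rising, or 1 rising without the third P14 date. They were led by the histone chaperone subunits Chaf1a at -1.97 ± 0.17 and Chaf1b at -1.99 ± 0.29, the helicase Hells at -2.03 ± 0.20 and the lamin Lmnb1 at -1.15 ± 0.14.

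Promoters of genes of these lists are shown because cell cycle genes are known to share short elements near their start. A CCAAT box, which binds the factor NF-Y, together with a CHR element (TTTGAA) is known from promoters of G2 and mitotic genes, and E2F sites from those of replication genes. The stretches are the 150 bases before the start of the 3 mitosis genes of smallest p with both motifs and the 2 replication genes of smallest p with an E2F site, from RefSeq on GRCm38.p6, written 5′ to 3′ on the strand of the gene. Capitals mark CCAAT or CHR letters in the first 3 and E2F letters in the last 2, on either strand.
Top2a (chr11:99024190-99024339, minus strand): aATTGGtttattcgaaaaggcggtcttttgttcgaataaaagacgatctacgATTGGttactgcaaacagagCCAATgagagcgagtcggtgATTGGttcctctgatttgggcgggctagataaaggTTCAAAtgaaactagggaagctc
Ect2 (chr3:27153879-27154028, minus strand): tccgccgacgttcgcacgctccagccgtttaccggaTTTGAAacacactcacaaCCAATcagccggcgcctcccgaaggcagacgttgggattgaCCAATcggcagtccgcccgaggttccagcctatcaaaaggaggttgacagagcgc
Cdk1 (chr10:69352913-69353062, minus strand): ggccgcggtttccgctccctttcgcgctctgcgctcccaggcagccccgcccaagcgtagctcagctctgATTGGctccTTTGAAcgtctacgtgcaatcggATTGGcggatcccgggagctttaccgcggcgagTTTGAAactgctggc
Mcm6 (chr1:128359706-128359855, minus strand): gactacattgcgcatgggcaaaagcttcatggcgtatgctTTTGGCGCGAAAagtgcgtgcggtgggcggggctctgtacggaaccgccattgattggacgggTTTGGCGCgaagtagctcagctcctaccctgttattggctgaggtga
Mcm5 (chr8:75109359-75109508, plus strand): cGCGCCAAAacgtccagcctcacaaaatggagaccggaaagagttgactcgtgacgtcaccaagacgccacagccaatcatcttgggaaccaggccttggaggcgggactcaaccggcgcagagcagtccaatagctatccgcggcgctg
Cdk1, the kinase that drives entry into mitosis, and the helicase subunit Mcm5 changed by -1.98 ± 0.20 and -1.73 ± 0.18. In the 250 bases before the first listed start, CCAAT on either strand was in 27 of 35 (77.1%) mitosis promoters and 19 of 31 (61.3%) replication promoters, against 3980 of 10918 (36.5%) of all tested genes with a promoter in the table. TTTGAA was in 11 of 35 (31.4%) of the mitosis promoters, 3 of 31 (9.68%) of the replication promoters and 1138 of 10918 (10.4%) of all, and both motifs together were in 10 of 35 (28.6%) of the mitosis promoters and 437 of 10918 (4%) of all. An E2F site, read as TTTGGCGC, TTTCCCGC, TTTCGCGC or TTTGCCGC, was in 7 of 31 (22.6%) of the replication promoters, 1 of 35 (2.86%) of the mitosis promoters and 365 of 10918 (3.34%) of all. In the 40 homeostatic genes, 27 of which had a promoter in the table, CCAAT was in 11 of 27 (40.7%) and GAGGAAGT, letters bound by the myeloid factor PU.1, in 1 of 27 (3.7%), against 262 of 10918 (2.4%) of all. A match of letters is a description of the sequence and was not tested.

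Growth factors and their receptors moved both ways, with 14 falls and 8 rises among 34 tested, or 5 rises without the third P14 date. H19, an imprinted noncoding RNA of fetal growth, had 0, 1.43 and 8.20 CPM in the P14 libraries (lowest, median and highest), against 26.4, 52.9 and 90.8 CPM in the P4 libraries. It fell by 4.82 ± 0.31 (adjusted p = 3.33e-16) without overlap. The RNA-binding protein Igf2bp3 fell by 1.30 ± 0.14, the stem cell factor receptor Kit by 2.06 ± 0.23 and the epidermal growth factor receptor Egfr by 1.76 ± 0.31. Pdgfb, a ligand for receptors on pericytes and other mural cells, had 275 to 786 CPM at P14 (median 465) and 114 to 189 CPM at P4 (median 136), rising by 1.79 ± 0.23 without overlap. Its relative Pdgfa rose by 1.13 ± 0.22 and the stress-induced cytokine Gdf15 by 2.44 ± 0.43, both with overlapping libraries.

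MHC class II genes, which present antigen to T cells, were higher at P14. All 9 of 9 tested rose (median 1.44), from low levels, with a summed level of 322 to 784 CPM (median 427) at P14 and 149 to 233 CPM (median 200.2) at P4 and no overlap. The invariant chain gene Cd74 had 139, 176 and 376 CPM in the P14 libraries (lowest, median and highest), against 56.7, 95.8 and 119.9 CPM in the P4 libraries. It changed by 1.07 ± 0.19 (adjusted p = 9.31e-06). The peptide exchange genes H2-DMa and H2-Oa changed by 1.59 ± 0.16 and 2.05 ± 0.25, and the class II chains H2-Aa and H2-Eb1 by 1.46 ± 0.30 and 1.47 ± 0.26. Of 22 class I genes, 13 rose, 0 fell and 9 did not pass (median 0.48). The rises numbered 7 with RLE factors, another correction for library composition, 7 with upper-quartile factors, and 6 without the third P14 date. B2m, the light chain of class I, had 1278 to 2732 CPM at P14 (median 1858) and 669 to 1253 CPM at P4 (median 990.4), changing by 0.87 ± 0.16, and H2-K1, H2-T23 and H2-Q4 by 0.83 ± 0.15, 1.09 ± 0.19 and 1.01 ± 0.16, class I genes that are alike enough for the counting to have split reads between them. Of 39 type I interferon response genes 6 rose and 6 fell (median 0.10), or 5 and 6 with RLE factors, beside 41.5% of all genes called in either direction. Without the fourth P4 date 5 of them rose and 2 fell, and without the third P14 date 2 rose and 5 fell. The antiviral gene Rsad2 was among those that fell, at -1.03 ± 0.25.

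Sensors of innate immunity rose more often than they fell. Of 39 Toll-like receptor and NF-kB genes tested, 20 rose and 3 fell (median 0.57), or 1 fell without the fourth P4 date. Tlr7, an endosomal receptor for single-stranded RNA, had 221, 492.7 and 747 CPM in the P14 libraries (lowest, median and highest), against 95.4, 176 and 278 CPM in the P4 libraries. The lowest P14 library lay within the range of P4, at 1.55 ± 0.20 (adjusted p = 2.7e-08), and Tlr13, which senses bacterial ribosomal RNA, and Tlr5, which senses flagellin, changed by 1.19 ± 0.18 and 1.68 ± 0.28. Of the NF-kB inhibitors Nfkbie changed by 1.32 ± 0.22 and Nfkbib by 1.26 ± 0.18, whereas Irak3, which blocks Toll-like receptor signals, fell by 1.55 ± 0.27. Cytokine and chemokine receptors showed 24 rises and 5 falls among 40 (median 0.60), or 17 rises without the third P14 date. The interleukin-10 receptor gene Il10ra had 453, 679 and 988 CPM in the P14 libraries (lowest, median and highest), against 127, 184 and 326 CPM in the P4 libraries. Its libraries did not overlap, at 1.82 ± 0.18 (adjusted p = 3.93e-11), as for Il21r at 1.63 ± 0.19 and for Csf3r, the receptor of granulocyte colony-stimulating factor, at 1.30 ± 0.19. The chemokine receptor Cxcr4, which responds to Cxcl12, fell by 1.00 ± 0.18, with 15.02 to 35.5 CPM at P14 (median 21.9) and 25.4 to 95.7 CPM at P4 (median 36.5).

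Among cytokines themselves there were 8 rises and 4 falls of 31 tested, beside 20.6% rises and 20.8% falls among all genes. The chemokine Cxcl16 rose by 1.23 ± 0.18 without overlap. Il1a and Il1b, the 2 ligands of the interleukin-1 receptor, moved in opposite directions: Il1a had 626 to 3134 CPM at P14 (median 1271) and 385 to 756 CPM at P4 (median 503), with a change of 1.30 ± 0.23 (adjusted p = 1.7e-05), and Il1b had 70.8 to 287 CPM at P14 (median 131) and 132 to 522 CPM at P4 (median 311), with a change of -1.14 ± 0.20 (adjusted p = 9.91e-06). The antagonist of that receptor, Il1rn, fell by 1.46 ± 0.23. Oncostatin M (Osm) rose by 1.03 ± 0.22 and the chemokine Ccl4 by 0.83 ± 0.21. Siglec, lectin and inhibitory surface receptors had 16 rises and 8 falls among 33. Lair1, an inhibitory collagen receptor, rose by 1.11 ± 0.18, Siglece by 1.11 ± 0.19 and Havcr2 (Tim-3) by 1.02 ± 0.19, while the activating receptors Trem1 and Trem3 fell by 1.67 ± 0.24 and 2.46 ± 0.39 and the beta-glucan receptor Clec7a by 1.06 ± 0.17.

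Complement and phagocytic genes divided. Of 21 complement genes 10 rose and 5 fell. The 3 chains of C1q, which tags synapses for removal, rose: C1qb had 1195 to 2634 CPM at P14 (median 1759) and 596 to 1338 CPM at P4 (median 973), at 0.94 ± 0.19, C1qa changed by 1.05 ± 0.22 and C1qc by 0.90 ± 0.20. Itgam, a chain of complement receptor 3, rose by 1.204 ± 0.21. In contrast C3, the component that C1q leads to, had 5.82, 11.5 and 34.7 CPM in the P14 libraries (lowest, median and highest), against 33.8, 44.1 and 241 CPM in the P4 libraries. It fell by 2.83 ± 0.30 (adjusted p = 2.35e-10), with 1 P14 library inside the P4 range, and by 2.08 without the fourth P4 date, which holds the highest library. C2 and Cfb, which form the convertases, fell by 1.35 ± 0.22 and 0.95 ± 0.23. Of 35 Fc, scavenger and apoptotic cell receptors 10 rose and 13 fell, and without the fourth P4 date 10 rose and 8 fell of 33. Without the third P14 date 6 rose and 12 fell. Mertk, a receptor for phosphatidylserine bridged by Gas6 or protein S, had 291, 698 and 924 CPM in the P14 libraries (lowest, median and highest), against 156, 259.6 and 377 CPM in the P4 libraries. It rose by 1.36 ± 0.22 (adjusted p = 3.56e-06), with 1 P14 library within the range of P4, while its relative Axl had 20.4 to 54.3 CPM at P14 (median 39.3) and 62.9 to 96.1 CPM at P4 (median 79.9) and fell by 1.07 ± 0.15 (adjusted p = 9.09e-08) without overlap. The Fc receptor Fcgr4 fell by 1.82 ± 0.24, and the scavenger receptors Marco and Olr1 by 4.79 ± 0.53 and 2.86 ± 0.41, with medians of 0 and 0.904 CPM in P14 libraries and 4.03 and 4.21 CPM in P4 libraries. The platelet activating factor receptor Ptafr and Elmo1, which acts in engulfment, rose by 1.41 ± 0.19 and 1.43 ± 0.20.

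Lysosomal genes showed 15 rises and 6 falls among 40, or 3 falls without the fourth P4 date. The cysteine protease Ctss had 1737, 2869.8 and 4232 CPM in the P14 libraries (lowest, median and highest), against 666, 1140.1 and 1603 CPM in the P4 libraries. Its stages did not overlap, at 1.28 ± 0.18 (adjusted p = 1.23e-07). The sialidase Neu1 rose by 1.11 ± 0.18, Ctsf by 0.72 ± 0.14 and Lamp2 by 0.66 ± 0.14. The galactosylceramidase Galc, which breaks down a myelin lipid, fell by 0.89 ± 0.12 without overlap, and Atp6v0d2, a proton pump subunit, by 3.90 ± 0.50, with medians of 0 CPM in P14 libraries and 4.33 CPM in P4 libraries.

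Purinergic, adenosine and adrenergic receptors and ion channels had 21 rises and 2 falls among 40 (median 0.56). Entpd1 (CD39), which removes extracellular ATP and ADP, had 439.5, 743 and 942 CPM in the P14 libraries (lowest, median and highest), against 214, 303 and 394 CPM in the P4 libraries. It rose by 1.35 ± 0.16 (adjusted p = 4.06e-09) with no overlap, beside the ADP receptor P2ry13 at 1.42 ± 0.19. The proton channel Hvcn1 rose by 1.27 ± 0.18, the potassium channel Kcnk6 by 1.68 ± 0.25 and the beta-1 adrenergic receptor Adrb1 by 1.78 ± 0.28. The adenosine receptor Adora2a and the potassium channel Kcnn3 fell by 1.52 ± 0.34 and 1.35 ± 0.37. Among 35 integrins and adhesion molecules 11 rose and 8 fell, a balance that turned with RLE factors (9 and 11) and without the third P14 date (7 and 8). Of all genes 20.6% rose and 20.8% fell. F11r, a junctional adhesion molecule, rose by 1.32 ± 0.19, Ninj1 by 1.17 ± 0.18 and Itgb5 by 1.19 ± 0.20. The integrins Itgal and Itga4, which act in leukocyte entry into tissue, fell by 2.07 ± 0.18 and 1.54 ± 0.19, Itgal with 12.9 to 50.6 CPM at P14 (median 23.2) and 63.9 to 169 CPM at P4 (median 95.3) and no overlap. Of 36 matrix proteins, proteases and inhibitors 12 fell and 6 rose, beside 41.5% of all genes called in either direction. The heparan sulfate degrading enzyme Hpse fell by 3.28 ± 0.31, thrombospondin 1 (Thbs1) by 1.38 ± 0.20 and Mmp9 by 1.52 ± 0.32, while the plasminogen activator Plau rose by 1.18 ± 0.25.

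Several of the largest falls were genes known from other cells. Tenascin C (Tnc), a matrix protein of astrocytes and radial glia, had 0, 7.82 and 29.8 CPM in the P14 libraries (lowest, median and highest), against 192, 249 and 327 CPM in the P4 libraries. It fell by 4.89 ± 0.34 (adjusted p = 5.9e-15), the largest fall among genes with a mean of at least 10 CPM at a stage. The radial glia gene Fabp7 had 0 to 68.3 CPM at P14 (median 10.3) and 174 to 321 CPM at P4 (median 235), falling by 4.02 ± 0.35, and Ncan, a proteoglycan of neural tissue, fell by 3.97 ± 0.38, both without overlap. The cartilage-type collagens Col2a1 and Col9a2 fell by 4.13 ± 0.43 and 3.67 ± 0.33, and the secreted phospholipase Pla2g3 by 4.33 ± 0.38. Gfap, the astrocyte filament, fell by 2.69 ± 0.41, with 0 to 75.1 CPM at P14 (median 5.54) and 40.3 to 81.8 CPM at P4 (median 67.5), or by 3.65 without the first P14 date, which holds the highest P14 library. In the astrocyte list 15 of 17 fell, and Gfap and Aldh1l1 were each at 0 in 1 of 28 libraries. Neuron markers summed to 27.03 to 442 CPM (median 138) at P14 and 139.9 to 415 CPM (median 359.8) at P4, and 10 of 17 fell (median -1.11), or 6 without the third P14 date (median -0.72). Globins and other red blood cell markers summed to 2.05 to 327 CPM (median 15.7) at P14 and 55.7 to 394 CPM (median 207) at P4, and 5 of 6 fell. Hba-a1 and Hba-a2 carry the same value in every library, as do Hbb-b1 and Hbb-b2, so their copies were not told apart.

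The stefin genes Stfa1 and Stfa3 and their relatives Gm5483 and BC100530 fell by 3.84 ± 0.41, 4.17 ± 0.52, 3.67 ± 0.38 and 3.61 ± 0.45, and the ficolin Fcnb and the chitinase-like Chi3l3 by 4.17 ± 0.59 and 3.67 ± 0.57. The stefins are near-identical copies that counting may split. Stefins of this family are known from neutrophils, as is the granule gene Ngp, which had 10.04, 52.5 and 144 CPM in the P14 libraries (lowest, median and highest), against 40.2, 312 and 2273 CPM in the P4 libraries. The 20 P14 libraries overlapped the P4 libraries, and the change was -3.36 ± 0.51 (adjusted p = 1.14e-06). Without the fourth P4 date the fall of Ngp was smaller, -1.71, and so were those of Stfa1 at -2.78, Stfa3 at -2.89, Gm5483 at -2.63, BC100530 at -2.50, Fcnb at -2.83 and Chi3l3 at -1.70, each still called. In that setting the neutrophil list had 13 falls of 14 tested, with a median of -1.71 in place of -3.15. Monocyte markers had 9 falls of 14, or 6 without that date, and the defining marker Ly6c2 was at 0 in 1 library. Border macrophage markers had 4 falls and 1 rise of 12, beside 41.5% of all genes called in either direction. The other 7 did not pass (median of the list -0.19, or -0.76 in F and 0.12 in M). Among those that fell were Folr2 at -2.23 ± 0.26, Mrc1 at -1.03 ± 0.21 and Lyve1 at -1.44 ± 0.32. The defining marker Cd163 had medians of 33.2 CPM at P14 and 32.9 CPM at P4. Myelin genes went the other way: Mag, a myelin glycoprotein, had 11.04 to 47.5 CPM at P14 (median 17.1) and 2.55 to 8.18 CPM at P4 (median 3.70), at 2.11 ± 0.28. Of 15 oligodendrocyte lineage markers 6 rose and 1 fell, and Mobp was at 0 in all 8 P4 libraries. The lymphocyte marker Cd3e was at 0 in 26 of the 28 libraries.

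Genes of lipid synthesis and efflux fell more often than they rose. Of 24 cholesterol synthesis and SREBP target genes 9 fell and 0 rose (median -0.29). The squalene epoxidase gene Sqle had 14.8 to 58.2 CPM at P14 (median 33.9) and 49.7 to 87.04 CPM at P4 (median 67.1), a fall of 0.94 ± 0.22 (adjusted p = 0.000468) with overlapping libraries. The later enzyme Dhcr7 fell by 0.77 ± 0.12, and the desaturase Scd2 by 1.07 ± 0.17. Of 18 lipid efflux and LXR target genes 8 fell and 3 rose (median -0.22). Without the fourth P4 date 5 of 17 fell and 3 rose (median -0.07), and without the third P14 date 7 fell and 1 rose. Apoe, the main lipid carrier of the brain, had 585, 932 and 1398 CPM in the P14 libraries (lowest, median and highest), against 1452, 2047 and 2464 CPM in the P4 libraries. It fell by 1.09 ± 0.17 (adjusted p = 1.93e-06) without overlap, beside Apoc1 at -1.75 ± 0.35, the lipid droplet protein Plin2 at -1.03 ± 0.14 and the cholesteryl ester hydrolase Nceh1 at -0.99 ± 0.16. Astrocytes also express Apoe, Scd2 and genes of sterol synthesis, and the astrocyte sums given above moved the same way. Whether transcripts of astrocytes had a part in these falls was not tested.

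Few genes of respiration and protein synthesis passed the test. Of 39 respiratory chain genes 0 rose and 0 fell (median -0.01), and of 41 cytosolic ribosomal protein genes 1 rose and 0 fell (median 0.18). A gene that did not pass is not shown to be equal between the stages. In the glycolysis list 8 rose and 4 fell of 24, or 1 fell without the fourth P4 date, with the fructose transporter Slc2a5 at 1.67 ± 0.20, hexokinase 2 (Hk2) at 1.54 ± 0.26, the regulator Pfkfb3 at 1.16 ± 0.21 and Hif1a, the oxygen-sensing factor of this pathway, at 0.64 ± 0.14, against Aldoc, an aldolase of astrocytes, at -1.23 ± 0.34. Of 22 iron and heme genes 11 rose and 2 fell. The rises numbered 7 with RLE factors, 7 with upper-quartile factors and 7 without the third P14 date. Among the genes that rose were the ferritin light chain Ftl1 at 1.06 ± 0.20 and the iron exporter partner Cp at 1.05 ± 0.23. Hmox1, which degrades heme, had 674, 934 and 1447 CPM in the P14 libraries (lowest, median and highest), against 249, 386 and 585 CPM in the P4 libraries. All P14 libraries lay above all P4 libraries. NADPH oxidase and antioxidant genes had 8 falls and 5 rises of 29. Beside this and the glycolysis list stand the 41.5% of all genes called in either direction. The membrane subunit of the oxidase, Cybb, had 25.5 to 61.8 CPM at P14 (median 39.7) and 69.8 to 359 CPM at P4 (median 90.6) and fell by 1.83 ± 0.21 (adjusted p = 2.63e-09), while its cytosolic partner Ncf1 rose by 1.13 ± 0.17. The highest P4 value of Cybb is from F_P4 replicate 4, the library richest in neutrophil markers, a cell type that expresses it, and without the fourth P4 date the fall was 1.19.

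Death and survival genes had 14 rises and 4 falls of 29. The survival gene Bcl2l1 had 149 to 339.8 CPM at P14 (median 187) and 85.3 to 119 CPM at P4 (median 95.1), rising by 1.10 ± 0.15 without overlap, while its relative Bcl2 fell by 1.16 ± 0.19, also without overlap. The BH3-only death genes Bbc3 and Bmf rose by 2.197 ± 0.33 and 1.25 ± 0.19, and Casp8 rose by 0.75 ± 0.12.

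Immediate early, heat shock, glucocorticoid-induced and clock genes rose more often than they fell, and the median sum of each of these lists was highest on the third P14 date. This was not particular to these lists. Homeostatic genes had a median sum of 65577 CPM on that date, against 50487 and 40911 CPM on the first and second. Transcription factors and lysosomal genes were also highest on it, and mitosis genes were lowest. Of 30 immediate early genes 18 rose and 3 fell (median 0.67), and without the third P14 date 13 rose (median 0.33). Atf3, a stress-induced factor, had 2077, 3363 and 6207 CPM in the P14 libraries (lowest, median and highest), against 741, 903 and 1499.8 CPM in the P4 libraries. It rose by 2.02 ± 0.21 (adjusted p = 1.57e-10) without overlap, as did Rhob at 1.70 ± 0.21, Ier5 at 1.29 ± 0.18 and Jund at 1.42 ± 0.22, while Nr4a2 fell by 1.05 ± 0.22. Of 20 heat shock proteins and chaperones 16 rose and 1 fell (median 0.83), or 14 rises without the third P14 date. Hspa1a, an inducible Hsp70 with a near-identical copy in Hspa1b, had 55.1, 537 and 968 CPM in the P14 libraries (lowest, median and highest), against 33.97, 71.4 and 239 CPM in the P4 libraries. The range at P14 was wide and overlapped P4, at 2.60 ± 0.47 (adjusted p = 1.8e-05). Its cofactors Hsph1, Dnajb4 and Bag3 changed by 1.99 ± 0.33, 1.26 ± 0.15 and 1.501 ± 0.25, and the small heat shock protein Hspb1 by 2.40 ± 0.31. Summed levels of the heat shock list were 7015 to 9496 CPM on the first P14 date, 9056 to 11956 CPM on the second and 10731 to 13565 CPM on the third, against 5321 to 7295 CPM (median 6036) at P4.

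Glucocorticoid-induced genes had 12 rises and 1 fall of 19 (median 0.74). Sgk1, a kinase of hormone-regulated ion transport, had 749, 1358 and 2364 CPM in the P14 libraries (lowest, median and highest), against 195, 278 and 381 CPM in the P4 libraries. It rose by 2.35 ± 0.20 (adjusted p = 1.1e-12) without overlap, beside Tsc22d3 (GILZ), an anti-inflammatory mediator, at 1.28 ± 0.21 and Fkbp5, a chaperone of the receptor, at 1.38 ± 0.29. The summed level was 3474 to 7003 CPM (median 4846) at P14 and 1979.6 to 2453 CPM (median 2332) at P4, with no overlap, and the third P14 date, at 5626 to 7003 CPM, lay above the other P14 dates. Of 18 clock genes 10 rose and 1 fell. The repressors Per1, Gm129 (Ciart), Nr1d2, Cry1 and Nr1d1 rose by 1.83 ± 0.25, 2.83 ± 0.34, 1.18 ± 0.14, 0.99 ± 0.15 and 1.16 ± 0.19, and Npas2, a partner of the activating arm, fell by 1.21 ± 0.38. The time of day of collection is not in the labels, so its part in these changes cannot be told apart from stage.

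The step was read in each sex. In libraries titled M 1793 genes rose (12.9%) and 1851 fell (13.4%), and in those titled F 1478 rose (10.7%) and 1420 fell (10.3%). A total of 2223 genes passed in both sexes in the same direction and 0 in opposite directions, and of the 5744 genes called in the mean of the sexes 5742 had the same sign in both. The test of the difference, the M step minus the F step, gave 0 calls (0% of genes) in edgeR, DESeq2 and limma-voom. At an unadjusted p under 0.05 there were 184 genes (1.33%) in edgeR, 229 in DESeq2 and 603 in limma-voom. With 4 P4 libraries a sex, a difference that did not pass is not shown to be absent. Each P4 and P14 date held as many F as M libraries, but the fit had no term for date. Spread between dates thus stayed in the error of this test. In edgeR on the 28 libraries alone, 361 of 12839 genes had an unadjusted p under 0.05, and 582 with the replicate number as a block. In the main fit the smallest p belonged to Kcnk5, a potassium channel gene, whose step was -3.88 ± 0.56 in M and -1.41 ± 0.45 in F, a difference of -2.47 ± 0.76 (unadjusted p = 0.00212, adjusted p = 1). It averaged 0.253 ± 0.360 CPM in P14 libraries titled M and 1.21 ± 0.842 CPM in those titled F, against 5.06 ± 3.06 CPM in P4 libraries titled M and 3.37 ± 1.33 CPM in those titled F (SD, n = 10 and 4 a sex). Also among the 10 genes of smallest p was the retinoic acid receptor Rara, with steps of -1.91 ± 0.36 in M and -0.34 ± 0.35 in F. For Tmem119 the steps were 2.64 ± 0.39 in M and 2.99 ± 0.39 in F, for Spp1 -4.32 ± 0.33 in M and -4.97 ± 0.33 in F, and for Top2a -1.90 ± 0.25 in M and -1.98 ± 0.25 in F.

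**Figure D4:**
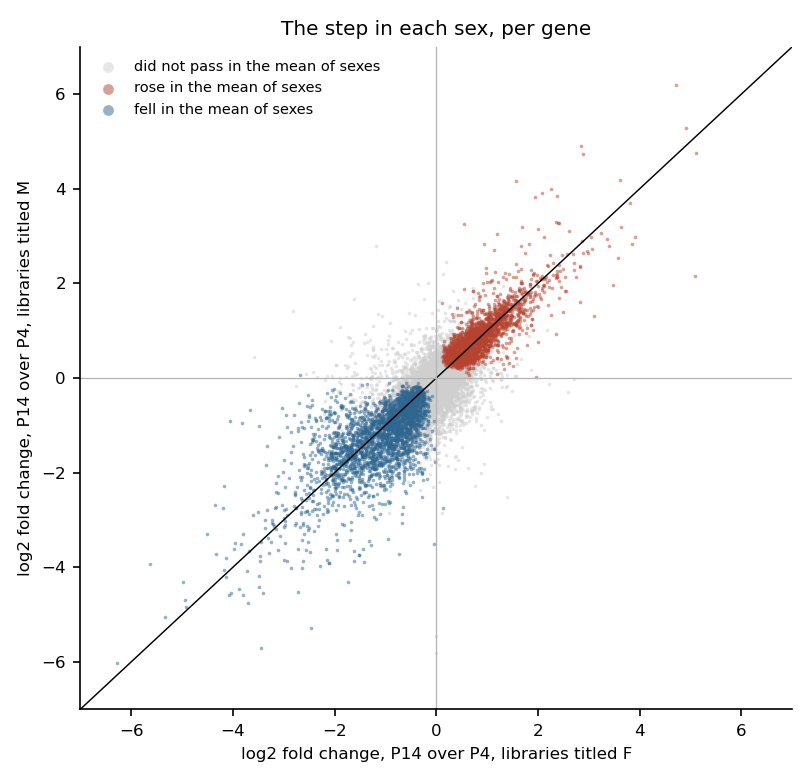
Log2 fold change of each of 13853 genes at P14 over P4 in libraries titled F (horizontal axis) and titled M (vertical axis), coloured by the call in the mean of the sexes, with the line of equal change. Called genes lie along the line, and 0 genes passed the test of the difference between the sexes.

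The changes of this step were set against those of the steps before and after it. The step minus the E18 to P4 step was above 0 for 1110 genes (8.01%) and below 0 for 1616 (11.7%). These steps share the P4 libraries, and the values of each are given side by side. Among genes that rose from P4 to P14 the shares were 17.2% above 0 and 3.85% below, and among genes that fell 2.04% above and 32.3% below. These genes were picked by the P14 over P4 difference that also enters the comparison. The lean of these shares was thus partly set in advance. Mitosis genes had a median of 0.74 at P4 over E18, -1.81 at P14 over P4 and -2.18 at P60 saline over P14, and for 41 of 42 the first 2 steps differed in the test. Top2a had medians of 173 CPM at E18, 335 at P4, 85.7 at P14 and 16.1 at P60, and its step minus the one before was -2.99 ± 0.36 (adjusted p = 2.76e-08). The neonatal list had medians of 0.65, -0.52 and -0.35 at the 3 steps. Within it Itgax had medians of 20.9 CPM at E18, 55.5 at P4, 9.91 at P14 and 24.5 at P60, and its step minus the one before was -4.33 ± 0.41 (adjusted p = 1.28e-10) and the step after minus this one 3.82 ± 0.37 (adjusted p = 4.92e-11). For neutrophil markers the medians were 2.68, -3.15 and -1.502. For astrocyte markers they were 0.45, -1.64 and -1.43.

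Homeostatic genes had medians of 1.36 at P4 over E18, 1.37 at P14 over P4 and 0.26 at P60 saline over P14, and 8 of 40 differed between the first 2 steps and 30 between the last 2. For the last 2 steps, 70.4% of all genes that rose from P4 to P14 were below 0 and 0.385% above, and of those that fell 39.4% were above 0 and 2.01% below. The share of homeostatic genes is thus near that of risen genes in general. These last 2 steps share the P14 libraries, and the comparison subtracts the difference by which the risen and fallen genes were picked. The lean of these shares was thus partly set in advance, for the homeostatic genes as well. Selplg had medians of 36.7 CPM at E18, 117 at P4, 859.8 at P14 and 1907 at P60, and its step exceeded the one before by 1.802 ± 0.44 (adjusted p = 0.00269). For P2ry12 the step minus the one before was -0.51 ± 0.34 (adjusted p = 0.285), and the step after minus this one was -1.63 ± 0.26 (adjusted p = 4.1e-06). Id2 had medians of 237, 219, 581 and 416 CPM at the 4 stages, with -0.24 ± 0.20 at P4 over E18, which did not pass. The clock gene Nr1d1 had medians of 46.3, 18.5, 43.4 and 24.7 CPM, so its P4 level was the lowest of the 4. The next step minus this one was above 0 for 1951 genes (14.1%) and below 0 for 2972 (21.5%), but 2725 and 2290 with RLE factors, so its balance depends on the scaling. Bbc3 and Cry1 were among the genes whose medians were highest at P14, with 8.44, 8.53, 37.4 and 11.5 CPM for Bbc3 and 23.6, 26.05, 57.03 and 11.4 CPM for Cry1. The P60 libraries had been given saline, and the sex-linked genes of 1 E18 library went against its title.

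**Figure D5:**
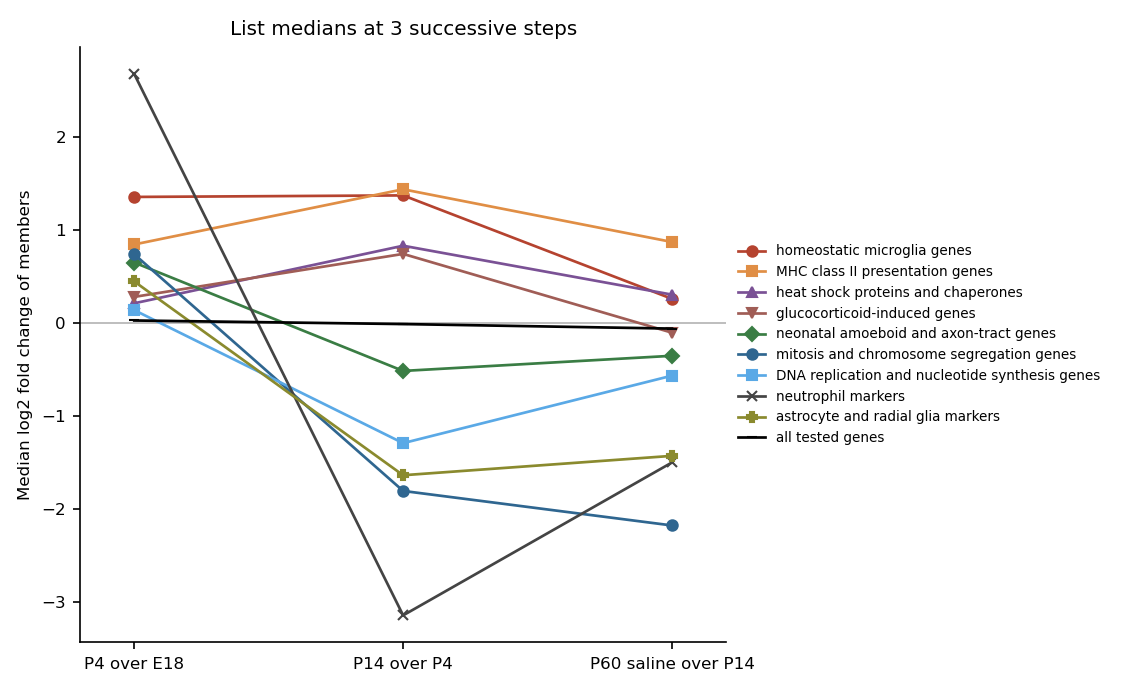
Median log2 fold change of the members of 9 gene lists and of all tested genes at P4 over E18, P14 over P4 and P60 saline over P14. The mitosis, replication, neonatal, neutrophil and astrocyte lists change sign between the first and the second step, and the homeostatic list has its smallest median at the last step.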

How the data were processed

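Total RNA of microglia was extracted with Trizol and made into stranded polyA libraries, per the labels' protocols. The values are whole-number counts per transcript row, deposited by the authors for 60 libraries in 28644 rows. CASAVA 1.8.2, edgeR and the build mm9 are named in the submitters' processing notes, while no source used here names the aligner or the counting rule. The 22869 symbols were each read from 1 row, the row marked as best in the deposited table (21988) or the one with most counts (881), and 25 symbols written as dates were kept as they stand.

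The counts of 47 untreated and saline libraries in 8 groups of sex and stage were fitted together in edgeR 4.0.16 (R 4.3.3) with TMM scaling, filterByExpr and robust quasi-likelihood dispersions, and contrasts were tested at an adjusted p of 0.05 over 13853 genes. Groups follow the titles. Lipopolysaccharide libraries were left out. Alternatives were DESeq2 1.42.0, limma 3.58.1 voom with sample weights, other scalings, filters and transcript rows, the 28 libraries alone, the sex characteristic, a replicate block, and leaving out libraries or dates. Levels are CPM scaled by TMM, and lists with 3 unmatched members of 1271 were counted with no set test.

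On simulated counts, for the mean of the sexes in a fit of 13425 genes, 100% of genes changed 4-fold were recovered, 84% of those raised 2-fold and 80% of those lowered 2-fold. The simulation changed 50 genes for each direction and size, drawn above a minimum level, in independent libraries with no effect of date. These shares may thus not hold for the real counts. The members and the 44 lists were chosen with earlier results of these data known. Named genes are the 15 largest rises and 15 largest falls among called genes averaging 10 CPM or more in a group, up to 6 members a list of smallest p in the majority direction and 3 in the other, the defining cell type markers, and the 10 genes of smallest p for sex by step. Some genes that the rule takes are not reported here. Cdk1 and Mcm5 were named for their promoters. Promoter sequences are those of RefSeq on GRCm38.p6, a build other than that of the counts, matched by symbol for 10918 tested genes.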

Additional observations from a re-analysis of the deposited data

Results flagged for a closer look

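In each group of 10 P14 or 4 P4 libraries of 1 title the highest and the lowest library were set against the others by Dixon's criterion. Of 228 such checks of the genes and list sums shown by library, 21 passed it, where chance passes about 1 in 20 groups. F_P4 replicate 4 was highest for the neutrophil marker sum at 9014 CPM (next 756), highest for Cxcr4 at 76.9 CPM (next 36.9), highest for C3 at 241 CPM (next 45.1), highest for Ngp at 2273 CPM (next 154) and highest for Cybb at 359 CPM (next 89.6). F_P14 replicate 3 was highest for the astrocyte marker sum at 2942 CPM (next 1635), highest for C3 at 34.7 CPM (next 20.5), highest for Tnc at 29.8 CPM (next 12.3) and highest for Gfap at 75.1 CPM (next 16.5). F_P14 replicate 5 was highest for the choroid plexus marker sum at 96432 CPM (next 54114) and highest for the red blood cell marker sum at 327 CPM (next 73.2). F_P4 replicate 1 was lowest for Tmem119 at 65.8 CPM (next 96.7), lowest for Selplg at 74.1 CPM (next 113) and lowest for Tgfbr1 at 465 CPM (next 600.4). F_P14 replicate 6 was highest for Spp1 at 54.2 CPM (next 33.98). M_P14 replicate 7 was highest for H19 at 8.20 CPM (next 2.91). F_P14 replicate 4 was highest for Cd74 at 376 CPM (next 255). M_P14 replicate 3 was highest for Gfap at 22.98 CPM (next 12.1). F_P14 replicate 7 was highest for Mag at 29.1 CPM (next 20.4). M_P14 replicate 1 was highest for Hmox1 at 1434 CPM (next 1037). M_P4 replicate 4 was highest for Atf3 at 1499.8 CPM (next 762). No result differed between the sexes in the test of that difference. The source of these single-library values was not tested.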

How the results depend on the processing

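Sign changes under the alternatives run were counted only for named genes called in the main fit. There were 0 of them wherever a gene had a value, and 0 to 18 of the 322 named genes lost their call in any one setting. Up to 17 had no value, the most with the filter of at least 10 CPM in 4 libraries. Of the 5744 genes called in the mean of the sexes, 70.2% (without the third P14 date) to 99.8% were also called in the same direction, and 0 in the opposite one. Rises numbered 1869 without the third P14 date, against 2856. The share of rises among calls was 49.7%, and 38.8% with DESeq2, 37.5% with RLE factors, 36.3% with upper-quartile scaling and 40.9% with no filter. For F libraries limma-voom called 2731 rises and 2639 falls, and 714 rises were called without the third P14 date. For M libraries limma-voom called 2944 rises and 3019 falls, and there were 1078 rises without that date. Leaving out 1 P4 library at a time gave 2218 to 2820 rises and 2513 to 3042 falls in the mean of the sexes, 876 to 1464 rises and 1060 to 1563 falls in F, and 979 to 1765 rises and 1261 to 2009 falls in M. The lowest F count was without F_P4 replicate 1, with 942 without replicate 4, and the lowest M count was without M_P4 replicate 1, with 1148 without replicate 3. The step minus the one before gave 804 to 1029 genes above 0 and 1300 to 1441 below, and the step after minus this one 1700 to 2385 above and 2297 to 2976 below, or 2974 above and 2469 below with DESeq2. On plain CPM the P14 libraries lay all above the P4 libraries for 215 genes and all below for 631. The difference between the sexes gave 0 calls in all settings run. With the replicate number as a block 2855 genes rose and 3115 fell. Libraries of the same number at P14 and P4 deviated from their group means with correlations from -0.38 to 0.28, over 0.1 in 2 of 8 pairs, and 2 of 8 P4 libraries correlated best with their own number, so the numbers were not taken as pairs. The majority direction turned for the adhesion and endothelial lists with RLE and upper-quartile scaling, for the endothelial list with the 28 libraries alone, without the fourth P4 date and without F_P4 replicate 4, for the phagocytic list without the fourth P4 date, and for the adhesion list without the third P14 date. It was lost for the glycolysis list with the 28 libraries alone, for the choroid plexus list without the third P14 date, and for the ribosomal list with upper-quartile scaling and without the third P14 date. The interferon list, with 6 rises and 6 falls, had no majority. Cholesterol synthesis falls numbered 14 with upper-quartile scaling, against 9. None of the 28 P14 and P4 libraries had over 10% of its counts in Ttr, so that setting gave no value. Intervals at low levels are limited by depth, 875895 counts in the shallowest library. The causes of these shifts were not tested.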

Other observations

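Of 17 endothelial and mural cell markers 4 rose and 2 fell (median -0.09), or 2 and 3 with RLE factors and 2 and 3 without the fourth P4 date. With TMM factors the sign of the median thus differed from that of most calls. Of all genes 41.5% were called in either direction. Of 12 choroid plexus and ependymal markers 5 fell and 1 rose (median -0.72), and without the third P14 date 1 fell and 1 rose (median -0.59). The 1 that rose was Enpp2, the gene of autotaxin, a secreted lipid-producing enzyme. Of 4 lymphocyte and NK cell markers the 1 that rose was Il7r, described above. Within the immediate early list the phosphatases Dusp2 and Dusp5, which switch off MAP kinases, fell while most of the list rose. These genes were named after their values were seen.

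In the heat shock list, the letters of a heat shock element, on either strand, were in 1 of 15 (6.67%) of the promoters in the table, against 33 of 10918 (0.302%) of those of all tested genes.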
